A study of Caenorhabditis elegans with 12 samples.

Results

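The mutant mex-6(pk440) was compared with the wild-type strain N2 of the nematode Caenorhabditis elegans, with 2 libraries of the mutant and 2 of N2 among 12 in the series. The mutant samples are labelled as carrying the allele pk440 of mex-6 in the N2 background, whereas the column names of the deposited tables call the same samples RNAi; the allele was followed here, and these 4 columns were taken by name. The series also holds 4 RNAi groups of 2 libraries each, against pos-1, gld-3, gld-2 and mex-5, made by feeding N2 worms bacteria of the strain HT115(DE3) that express double-stranded RNA. The labels describe N2 as grown on the bacterial strain OP50 and do not state separately what the mutant was fed. Each sample was a frozen pellet of early embryos, over 90% of them between the zygote and the 24-cell stage, and the labels do not say how much of mex-6 the pk440 lesion removes. Libraries were made by PAT-seq, which tags the end of the poly(A) tail and sequences RNA 3' ends, so that each gene has a number of reads and a mean tail length in nucleotides (nt). The labels do not tie the 2 libraries of a group to separate worm cultures, and p-values then measure the spread between these libraries, which may be technical.

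MEX-6 and its close relative MEX-5 are RNA-binding proteins with tandem CCCH zinc fingers. In the zygote the PAR polarity proteins concentrate both of them in the anterior cytoplasm, where they keep germline proteins such as PIE-1 and POS-1 and the P granules to the posterior. The pair is partly redundant, and loss of MEX-5 is known to be the more severe. Regulation at this stage acts largely on maternal mRNA that is already in the egg, in part through the length of the poly(A) tail, which the cytoplasmic poly(A) polymerase GLD-2 with its partner GLD-3 extends. Among the mRNAs studied in this setting is neg-1, which encodes an RNA-binding protein of anterior blastomeres that holds back endomesoderm fate.

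The mutant libraries held 6754433 and 4857155 reads assigned to genes, and the N2 libraries 10229871 and 5949525. Ribosomal RNA took 39.6% and 47.1% of these in the mutant and 48.2% and 52.4% in N2. Levels are given as counts scaled to a common library size (CPM) with library sizes adjusted by TMM, a trimmed mean of the ratios between libraries. The median tail over the genes tested was 42.3 nt in both mutant libraries, against 44.2 and 40.4 nt in N2, so that the 2 N2 libraries lay on either side of the mutant. Every fit below used all 12 libraries to estimate the spread.

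The mex-6 transcript itself was the gene most clearly lower in the mutant. It had 59 and 15 reads in mex-6(pk440), against 2041 and 1351 reads in N2. As a level this was 7.03 and 3.07 CPM in mex-6(pk440), against 205 and 244 CPM in N2. Both mutant libraries lay far below both N2 libraries, and the log2 change was -5.41 ± 0.36 (SE, n = 2 each; edgeR quasi-likelihood test with Benjamini-Hochberg adjustment over all genes tested, adjusted p = 7.8e-06). Each of the other fits tried also called it, with log2 changes between -6.18 and -4.95. The gene lies at chrII:9524122-9525816 on the plus strand of the ce10 build, and the poly(A) peak assigned to it at chrII:9526205-9526305 ends its reads past the annotated gene end, starting 389 bases downstream. All 59 and 15 mutant reads fell in this peak, where N2 had 1954 and 1332 reads. A 3' tag at that position does not show whether the reads left in the mutant come from a transcript that holds the coding region. Their mean tails were 36.6 and 43.3 nt in mex-6(pk440), against 40.4 and 36.4 nt in N2, and the groups overlapped.

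The genes that neighbour mex-6 were little covered. Of 29 annotated features within 50 kb, 2 had enough reads to be tested, and neither passed. These were T19H5.4, with a log2 change of 0.03 ± 0.30, and zfp-2, a zinc finger gene, with -0.21 ± 0.30 (edgeR adjusted p = 0.99 and 0.89).

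The other genes that the study targeted or followed did not pass the test in mex-6(pk440) against N2. The relative mex-5 had 406 and 335 CPM in mex-6(pk440), against 457 and 449 CPM in N2. Both mutant libraries were below both N2 libraries, but the log2 change of -0.29 ± 0.20 missed the threshold (95% interval -0.71 to 0.14, edgeR adjusted p = 0.69). The level of neg-1 was 25.6 and 23.5 CPM in mex-6(pk440), against 31.5 and 26.3 CPM in N2. The groups did not overlap here either, and the log2 change was -0.24 ± 0.26 (95% interval -0.80 to 0.33, edgeR adjusted p = 0.84).

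For pos-1, a CCCH zinc finger protein of the posterior blastomeres, the mutant had 504 and 379 CPM, against 506 and 626 CPM in N2 (log2 change -0.36 ± 0.36). The higher mutant library fell just short of the lower N2 library. The GLD-2 partner gld-3 had 113.98 and 123 CPM in mex-6(pk440), against 105 and 104 CPM in N2 (log2 change 0.18 ± 0.20). The polymerase gene gld-2 had 14.2 and 10.2 CPM in mex-6(pk440), against 12.3 and 8.30 CPM in N2, and these overlapped. For 4 of the 6 genes, mex-6 among the exceptions, the 95% interval of the change lay within a 2-fold change in either direction.

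**Figure D1:**
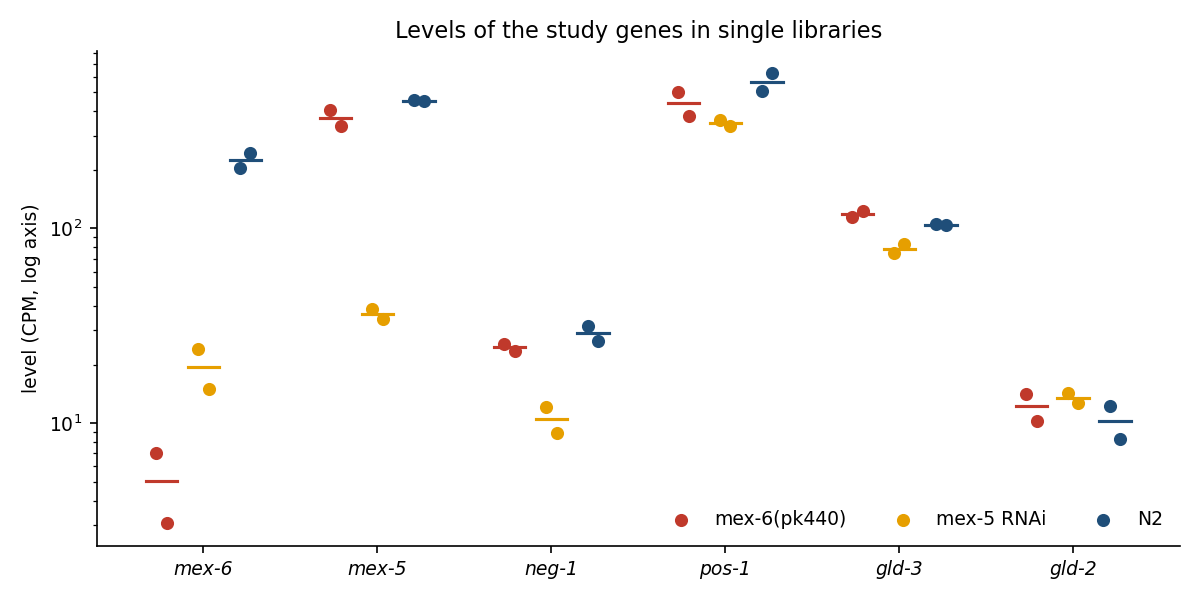
Level in CPM (log axis) of mex-6, mex-5, neg-1, pos-1, gld-3 and gld-2 in each library of mex-6(pk440), mex-5 RNAi and N2; points are libraries and bars are means of 2. The mutant stands apart from N2 at mex-6, with 7.03 and 3.07 against 205 and 244 CPM, while mex-5 is at 406 and 335 against 457 and 449 CPM.

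Across the transcriptome the mutant and N2 were hard to tell apart. Of 9403 genes tested, 2 passed at an adjusted p of 0.05, which is 0.0213%, and both were lower in the mutant: mex-6 and col-178. The edgeR test called 0 genes higher, while 387 genes were higher and 473 lower at an unadjusted p under 0.05, together 9.15% of those tested. DESeq2 called 74 genes, of which 15 were higher and 59 lower, and mex-6 and col-178 were among them. The median log2 change over all genes was -0.01, and for 4097 genes, or 43.6%, the 95% interval lay within a 2-fold change. For the other genes a change of 2-fold was not excluded. With 2 libraries in each group many intervals were wide, while for mex-6 and col-178 the change itself was larger than 2-fold.

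The second called gene, col-178, encodes a cuticle collagen, and it lies at chrX:11199411-11200311 in ce10. Its level was 3.46 and 4.71 CPM in mex-6(pk440), against 112 and 177 CPM in N2. The mutant libraries were far below N2, with a log2 change of -5.17 ± 0.63 (edgeR adjusted p = 0.0068). The call was lost without mutant replicate 1 (adjusted p = 0.31) and without mutant replicate 2 (adjusted p = 0.33), the highest values over all alternatives, while every other alternative gave an adjusted p of at most 0.042. Low levels of col-178 were also seen in other groups. It stood at 10.4 and 5.22 CPM in mex-5 RNAi, at 29.2 and 5.00 CPM in pos-1 RNAi and at 17.5 and 17.9 CPM in gld-3 RNAi. In gld-2 RNAi it stood at 176 and 182 CPM, so that N2 and gld-2 RNAi were the high groups and the other 4 groups were low.

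**Figure D2:**
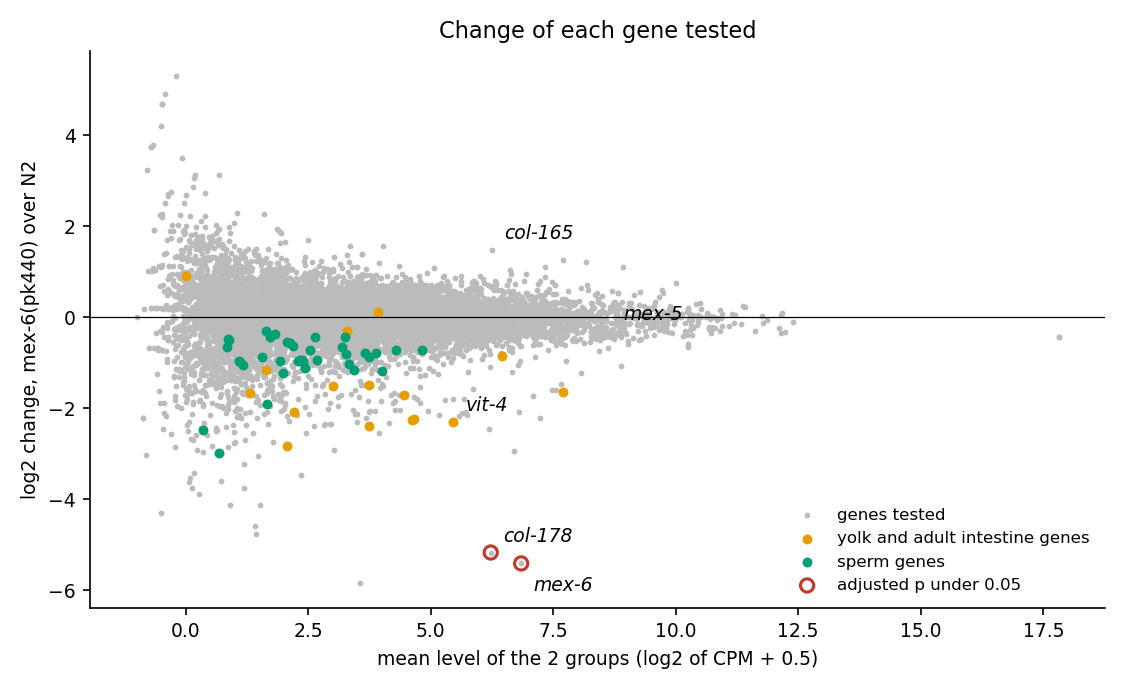
Log2 change in mex-6(pk440) over N2 (vertical axis) against the mean level of the 2 groups (log2 of CPM + 0.5, horizontal axis) for the 9403 genes tested; circles mark the 2 genes with an adjusted p under 0.05. The genes mex-6 (-5.41) and col-178 (-5.17) lie far below a cloud centred on 0, and yolk and sperm genes lie mostly below 0.

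Yolk and cuticle genes were among those just short of the threshold. The yolk lipoprotein gene vit-4 had 17.9 and 11.3 CPM in mex-6(pk440), against 52.9 and 92.0 CPM in N2, a log2 change of -2.29 ± 0.39 (edgeR adjusted p = 0.067). Another, vit-2, had 9.30 and 7.98 CPM in mex-6(pk440), against 33.3 and 48.3 CPM in N2, a log2 change of -2.23 ± 0.38 (edgeR adjusted p = 0.068). The mutant was lower than N2 in every library of both genes. The vitellogenin genes include near-identical copies, so reads may be split between them and the value of each is uncertain. The other uncalled genes of smallest p on the lower side were Y75B12B.1, abu-1 and C44B7.5, with log2 changes of -2.31 ± 0.37, -2.73 ± 0.44 and -2.53 ± 0.45 (edgeR adjusted p = 0.059, 0.059 and 0.080).

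On the higher side the smallest p belonged to col-165, another cuticle collagen. It had 105 and 119.1 CPM in mex-6(pk440), against 41.4 and 38.2 CPM in N2. Both mutant libraries were above both N2 libraries, with a log2 change of 1.49 ± 0.24 that missed the threshold (edgeR adjusted p = 0.059). Next came F41F3.3, with 364 and 437 CPM in mex-6(pk440), against 190 and 155 CPM in N2. The antimicrobial peptide gene nlp-33, known from the epidermis, had 39.9 CPM in both mutant libraries, against 19.9 and 20.7 CPM in N2. These groups did not overlap, and with F10G8.8 and the collagen gene col-65 the uncalled higher genes had log2 changes from 0.98 to 1.57 (edgeR adjusted p from 0.059 to 0.095).

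Genes that act with MEX-5 and MEX-6 were examined as lists, of which no member other than mex-6 passed. For comparison, 20.3% of all genes tested were higher in both mutant libraries than in both N2 libraries, and 20.4% were lower in the same sense. Of 9 tested genes for CCCH zinc finger proteins of the early embryo, 1 was higher in this sense and 5 were lower, with a median log2 change of -0.29 over the list. The germline determinant pie-1, which MEX-5 and MEX-6 keep to the posterior, had 97.9 and 121 CPM in mex-6(pk440), against 156 and 117 CPM in N2, and the groups overlapped. The zinc finger gene dct-13 had 16.8 and 16.6 CPM in mex-6(pk440), against 21.9 and 22.9 CPM in N2 (log2 change -0.42 ± 0.27, edgeR adjusted p = 0.66).

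Polarity genes and regulators of MEX-5 and MEX-6 stayed close to N2. Of 20 tested, 3 were higher and 5 lower without overlap, and 18 had a 95% interval within 2-fold. The smallest p was that of lgl-1, the worm homologue of lethal giant larvae, with 10.6 and 12.5 CPM in mex-6(pk440), against 7.43 and 4.69 CPM in N2 (log2 change 0.89 ± 0.31, edgeR adjusted p = 0.36). The non-muscle myosin nmy-2, which drives cortical flow in the zygote, had 109 and 105 CPM in mex-6(pk440), against 83.7 and 61.9 CPM in N2 (log2 change 0.55 ± 0.22, edgeR adjusted p = 0.47). Both were higher in the mutant in each library without passing the test.

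Maternal regulators of mRNA showed the same closeness. Of 30 genes for maternal RNA-binding proteins, 5 were higher and 3 lower without overlap, 25 had an interval within 2-fold, and the median log2 change was -0.03. The RNA-binding protein gene sup-46 had the smallest p there, with 88.5 and 84.1 CPM in mex-6(pk440), against 133 and 110 CPM in N2 (log2 change -0.49 ± 0.22, edgeR adjusted p = 0.52). The Pumilio-family gene puf-3 had 227 and 220 CPM in mex-6(pk440), against 164 and 191 CPM in N2. Of 20 P granule and germ lineage genes, 2 were higher and 3 lower, and nos-2, a Nanos-family regulator of germ cells, had 123 CPM in both mutant libraries, against 126 and 182 CPM in N2. Of 29 genes for poly(A) machinery, 4 were higher and 3 lower, 25 had an interval within 2-fold, and the lowest was cpsf-3, the cleavage endonuclease, at -0.60 ± 0.32.

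Transcripts that mark early cell fates did not pass either, and most were low in reads. Of 13 endomesoderm and gut genes, 4 were higher and 3 lower without overlap. The endoderm GATA factor genes end-1 and end-3 stood at 7.03 and 6.96 CPM and at 1.79 and 1.02 CPM in mex-6(pk440), against 5.32 and 4.69 CPM and 2.71 and 2.34 CPM in N2. Their log2 changes were 0.47 ± 0.41 and -0.79 ± 0.62, in opposite directions. The later gut factor elt-2 had 12 and 6 reads in mex-6(pk440), against 40 and 13 reads in N2.

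Of 26 anterior and ectoderm genes, 9 were higher and 4 lower without overlap, with a median log2 change of 0.15. The epidermal GATA factor elt-3 had 20.3 and 20.5 CPM in mex-6(pk440), against 13.8 and 12.63 CPM in N2 (log2 change 0.62 ± 0.22, edgeR adjusted p = 0.39). The Notch receptor gene glp-1, translated in the anterior of the early embryo, had 28.97 and 28.4 CPM in mex-6(pk440), against 21.3 and 18.2 CPM in N2 (log2 change 0.54 ± 0.24, edgeR adjusted p = 0.52). Of 11 muscle and posterior genes, 2 were higher and 0 lower, and the muscle regulator hlh-1 had 7.99 and 10.0 CPM in mex-6(pk440), against 4.82 and 6.13 CPM in N2 (log2 change 0.72 ± 0.34, edgeR adjusted p = 0.56). These genes were higher in both mutant libraries by less than 2-fold, and none of them passed.

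Of 13 early zygotic transcripts, 2 were higher and 2 lower, with sdz-38 lower at -0.94 ± 0.49 (edgeR adjusted p = 0.58) and the Notch-responsive gene hlh-27 higher at 1.14 ± 0.41 (edgeR adjusted p = 0.38).

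Genes of adult tissue and of sperm stood lower in the mutant as lists, although no member passed. Of 16 yolk and adult intestine genes tested, 13 were lower without overlap and 0 were higher, with a median log2 change of -1.66 against -0.01 over all genes. Vitellogenin copies that may share reads are not separate observations, so the count can overstate the agreement. The summed level over the 17 list genes found was 290 and 207 CPM in mex-6(pk440), against 539 and 887 CPM in N2. Yolk proteins are made in the adult intestine, and in bulk pellets fewer cells of a type and less RNA per cell cannot be told apart. Across the series the same sum stood at 986 and 1053 CPM in gld-2 RNAi and between 52.4 and 452 CPM in the other 3 RNAi groups, so that N2 and gld-2 RNAi were again highest. Further yolk genes, vit-5 and vit-6, had log2 changes of -2.39 ± 0.44 and -2.25 ± 0.41 (edgeR adjusted p = 0.080 each). These 2 genes, vit-2 and vit-4 passed with DESeq2, without the low-count filter and with the 4 libraries fitted alone, at much the same fold.

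Of 37 sperm genes tested, 28 were lower without overlap and 0 were higher. Each of the 37 fitted changes was negative, with a median log2 change of -0.86, while 49.1% of fitted changes over all genes were positive. Of the 48 sperm genes found, 37 passed the low-count filter over all 12 libraries. With the mutant and mex-5 RNAi libraries alone, 26 did. A gene can pass that filter through N2 alone, which favours a lower value in the mutant. These counts are thus no support for a difference by themselves. Summed over all 48 genes, without that filter, the level was 187 and 148 CPM in mex-6(pk440), against 256 and 347 CPM in N2. Of the 48, 5 and 7 were at 0 reads in mex-6(pk440), against 3 and 4 in N2. The major sperm protein gene msp-59 had 10.8 and 7.98 CPM in mex-6(pk440), against 19.3 and 24.0 CPM in N2 (log2 change -1.18 ± 0.33, edgeR adjusted p = 0.24). The major sperm protein genes form a family of near-identical copies, so the value of a single member is uncertain. Such copies are also not separate observations in the counts above. The sperm sum was 308 and 335 CPM in gld-2 RNAi and between 24.10 and 101 CPM in pos-1, gld-3 and mex-5 RNAi.

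The collagen genes were grouped after the values of col-178 were seen. Of 77 tested, 34 were lower and 15 higher without overlap, and the median log2 change was -0.39. The 77 had passed the same low-count filter, so genes high in N2 could enter through N2 alone. The sum over the 134 collagen genes in the table was 1312 and 1105 CPM in mex-6(pk440), against 2024 and 3278 CPM in N2, and 3460 and 3983 CPM in gld-2 RNAi. The adult cuticle collagen col-19 had 23.4 and 16.37 CPM in mex-6(pk440), against 63.2 and 106 CPM in N2 (log2 change -2.07 ± 0.47, edgeR adjusted p = 0.12). Whether adult material in the pellets has a part in the lower yolk, sperm and collagen transcripts, col-178 included, was not tested.

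**Figure D3:**
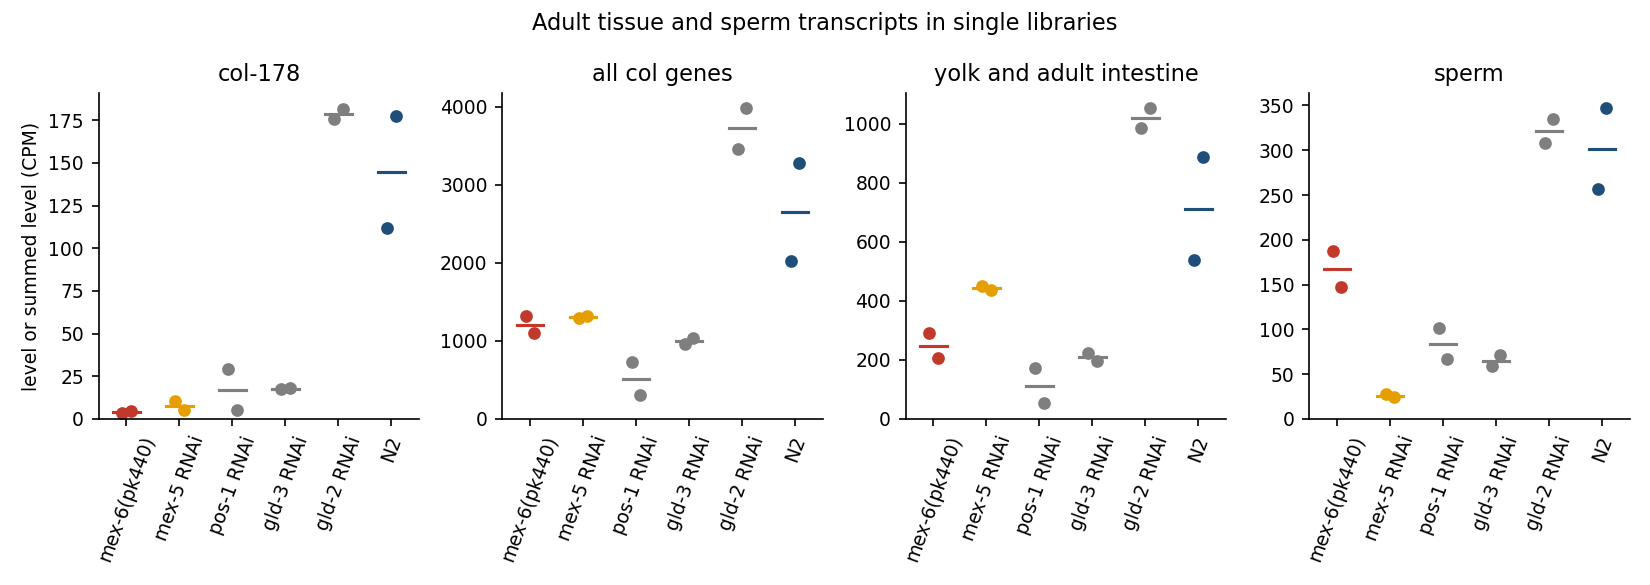
Level of col-178 and summed levels of 134 collagen genes, 17 yolk and adult intestine genes and 48 sperm genes (CPM) in each of the 12 libraries; points are libraries and bars are means of 2. In each panel mex-6(pk440) lies below N2, as for yolk with 290 and 207 against 539 and 887 CPM, and gld-2 RNAi lies with N2 at the high end.

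Late embryo and larval tissue genes did not move together. Of 24 tested, 7 were higher and 7 lower without overlap, and their sum was 1525 and 1653 CPM in mex-6(pk440), against 1583 and 1631 CPM in N2. The lower ones included tnt-2, a troponin T of muscle, at -1.83 ± 0.37 (edgeR adjusted p = 0.095), and the higher ones nlp-29, an antimicrobial peptide gene of the epidermis, at 1.25 ± 0.30 (edgeR adjusted p = 0.16).

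In the housekeeping groups most members overlapped between the mutant and N2. Of 67 ribosomal protein genes, 5 were higher and 9 lower without overlap, both smaller shares than the 20.3% and 20.4% of all genes, and 53 had an interval within 2-fold. The lowest was rpl-25.2, with 166 and 158 CPM in mex-6(pk440), against 448 and 303 CPM in N2 (log2 change -1.21 ± 0.39, edgeR adjusted p = 0.32). Of 35 histone genes, 4 were higher and 6 lower, also below the shares of all genes. The centromeric histone hcp-3 had 24.08 and 23.7 CPM in mex-6(pk440), against 49.7 and 29.2 CPM in N2, and the linker histone gene hil-7 had 220 and 311 CPM, against 172 and 184 CPM in N2. Neither passed.

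Cell cycle genes leaned lower, with 9 of 28 lower and 3 higher without overlap and a median log2 change of -0.20. The B-type cyclin gene cyb-2.1 had 24.8 and 24.6 CPM in mex-6(pk440), against 56.7 and 43.6 CPM in N2 (log2 change -1.03 ± 0.29, edgeR adjusted p = 0.24). The replication licensing inhibitor gmn-1, or geminin, had 29.9 and 28.9 CPM in mex-6(pk440), against 40.97 and 47.8 CPM in N2 (log2 change -0.59 ± 0.23, edgeR adjusted p = 0.45).

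Of 20 genes for vitamin B12 and propionate metabolism, which follow bacterial diet in this species, 4 were higher and 6 lower. The phosphoethanolamine methyltransferase pmt-2 had 32.7 and 32.5 CPM in mex-6(pk440), against 84.6 and 64.8 CPM in N2 (log2 change -1.20 ± 0.26, edgeR adjusted p = 0.095). Of 29 RNAi machinery genes, 5 were higher and 6 lower, with the nuclear RNAi factor nrde-2 higher at 0.82 ± 0.33 and the helicase gene mut-14 lower at -0.86 ± 0.34 (edgeR adjusted p = 0.47 and 0.45). Of 13 stress genes, 1 was higher and 4 lower, and the detoxification gene gst-4 had 3 and 2 reads in mex-6(pk440), against 16 and 15 reads in N2 (edgeR adjusted p = 0.21).

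**Figure D4:**
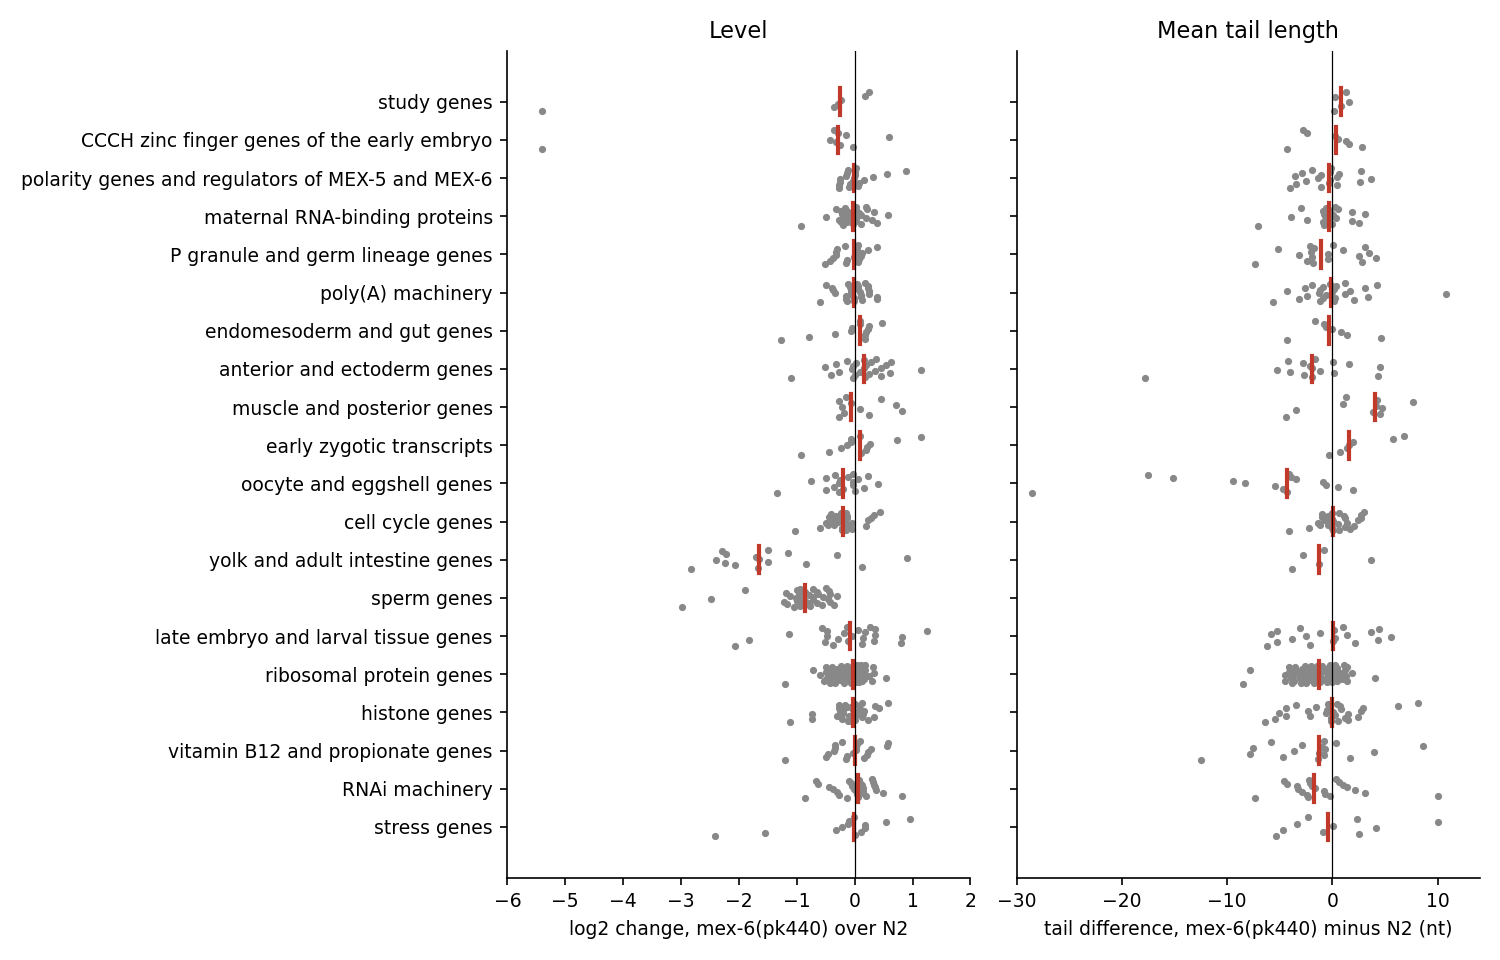
Log2 change in level (left) and difference in mean tail in nt (right), mex-6(pk440) relative to N2, for each tested member of the 20 gene lists; dots are genes and red bars are list medians. The level medians lie near 0 except for yolk and adult intestine genes (-1.66) and sperm genes (-0.86), and the tail medians are lowest in oocyte and eggshell genes (-4.29 nt) and highest in muscle and posterior genes (4.01 nt).

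Poly(A) tails also differed little between mex-6(pk440) and N2. Of 5471 genes that had at least 10 reads and a tail measured in every one of the 12 libraries, limma with Benjamini-Hochberg adjustment called 0, and 194 genes, or 3.55%, had an unadjusted p under 0.05, of which 66 had longer and 128 shorter tails. The median difference over all genes was -0.20 nt, and for 44.1% of them the 95% interval lay within 10 nt in either direction. Tails were longer in both mutant libraries than in both N2 libraries for 12.6% of genes and shorter for 15.1%.

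The tails of the study genes overlapped between the groups. For neg-1 they were 43.1 and 46.2 nt in mex-6(pk440), against 46.7 and 40.98 nt in N2. For pos-1 they were 48.9 and 52.1 nt in mex-6(pk440), against 53.8 and 44.6 nt in N2. For mex-5 they were 49.9 and 57.3 nt in mex-6(pk440), against 56.5 and 50.1 nt in N2. The spread between the 2 N2 libraries was as wide as any difference, and gld-3 behaved alike, with 46.5 and 44.4 nt in mex-6(pk440), against 48.1 and 42.4 nt in N2. All 5 study genes with tails had a 95% interval within 10 nt; gld-2 lacked a tail value in 1 library and did not enter.

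Oocyte and eggshell genes had the lowest median tail difference among the lists, although no member passed. At the other end stood muscle and posterior genes, with a median difference of 4.01 nt. Of 10 tested, 3 had longer tails without overlap and 0 shorter ones, and 0 passed (limma). Their median tail was 44.3 and 44.5 nt in mex-6(pk440), against 41.9 and 38.2 nt in N2. Of the 15 oocyte and eggshell genes tested, 11 had shorter tails in both mutant libraries than in both N2 libraries and 1 had longer ones, with a median difference of -4.29 nt. The smallest p was that of cpg-3, a chondroitin proteoglycan of the eggshell. Its mean tail was 23.8 and 22.2 nt in mex-6(pk440), against 37.6 and 38.5 nt in N2. Each pair of libraries lay close together, and the groups stood well apart, by -15.1 ± 2.18 nt (SE, limma adjusted p = 0.095). With libraries weighted by reads (adjusted p = 0.018) and with log2 tails (adjusted p = 0.033) cpg-3 passed, and over all alternatives its adjusted p ran up to 1.00. Its level was close in the 2 groups, at 101 and 103 CPM in mex-6(pk440), against 86.3 and 87.1 CPM in N2.

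The largest difference in this list was that of egg-2, an egg surface protein needed at fertilization, with tails of 29.2 and 31.3 nt in mex-6(pk440), against 62.5 and 55.1 nt in N2 (-28.5 ± 6.74 nt, limma adjusted p = 1.00). The eggshell proteoglycan gene cpg-1 had tails of 19.2 and 18.5 nt in mex-6(pk440), against 23.7 and 24.9 nt in N2 (-5.44 ± 1.40 nt). The eggshell organizer cbd-1 had tails of 20.4 and 19.7 nt in mex-6(pk440), against 27.98 and 28.8 nt in N2 (-8.31 ± 2.22 nt). In each of these genes the 2 mutant libraries were below N2 without overlap.

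Across the other groups the oocyte and eggshell genes did not all follow 1 pattern. In 7 of the 15 genes, every library of N2 and gld-2 RNAi had a longer tail than every library of the other 4 groups. Among them were cpg-3, egg-2 and cpg-1. It is the division seen for the level of col-178 and was counted after these values were seen. How many of all genes divide in this way was not counted, so 7 of 15 has no share to stand beside. The cpg-3 tail was 45.9 and 45.01 nt in gld-2 RNAi, close to or above N2, but lay between 18.3 and 24.9 nt in the libraries of mex-5, pos-1 and gld-3 RNAi. For egg-2 the tails were 62.2 and 63.1 nt in gld-2 RNAi and between 21.2 and 47.03 nt in mex-5, pos-1 and gld-3 RNAi. For cpg-1 they were 23.8 and 22.4 nt in gld-2 RNAi and between 17.04 and 19.3 nt in those 3 groups. The other 8 genes did not divide in this way. For oma-2 the tail was 33.04 and 34.1 nt in mex-5 RNAi, above N2, and 25.7 and 27.8 nt in gld-2 RNAi, below N2. Without overlap, mex-5 RNAi had shorter tails than N2 in 8 of the 15 genes and longer ones in 6. For gld-2 RNAi 3 were shorter and 5 longer. For pos-1 RNAi 11 were shorter and 2 longer, and for gld-3 RNAi 13 and 1, beside 11 and 1 in mex-6(pk440). The shares of all genes are not given for these RNAi groups, so their counts cannot be read as particular to this list. The summed yolk and sperm levels given above are also high in N2 and gld-2 RNAi. Because the 7 genes were picked by that division, their match with these sums follows from the choice. Whether the material behind these sums has a part in the tail difference was not tested.

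In level, 7 of 19 oocyte and eggshell genes were lower and 2 higher without overlap. The yolk receptor gene rme-2 had 14.1 and 12.1 CPM in mex-6(pk440), against 16.47 and 28.3 CPM in N2, and gna-2, needed to make eggshell chitin, had 29.3 and 23.9 CPM, against 38.4 and 36.6 CPM in N2 (log2 changes -0.76 ± 0.30 and -0.49 ± 0.22, edgeR adjusted p = 0.46 and 0.54). The gene of smallest p was pqn-74, at -1.35 ± 0.34 (edgeR adjusted p = 0.19). The proteoglycan gene cpg-2 stood on the other side, at 0.40 ± 0.26.

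**Figure D5:**
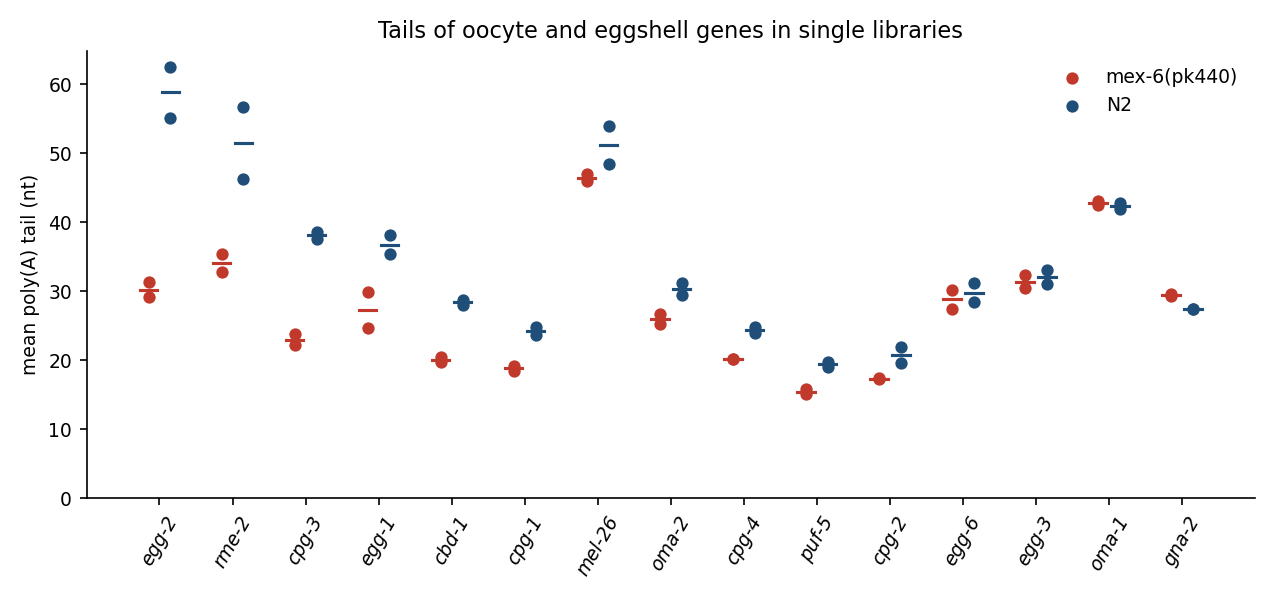
Mean poly(A) tail in nt of the 15 oocyte and eggshell genes tested, for each library of mex-6(pk440) and N2; points are libraries and bars are means of 2. In 11 genes both mutant libraries lie below both N2 libraries, from egg-2 with 29.2 and 31.3 against 62.5 and 55.1 nt to differences of a few nt.

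Some maternal RNA-binding protein genes also had shorter tails in both mutant libraries, and 0 passed (limma). The P-body component car-1 had tails of 28.2 nt in both mutant libraries, against 35.5 and 34.99 nt in N2 (-7.06 ± 1.88 nt, limma adjusted p = 1.00). The helicase gene cgh-1 had tails of 24.8 and 22.7 nt in mex-6(pk440), against 26.2 and 27.3 nt in N2, and the oocyte maturation factor oma-2, which is counted in the zinc finger and the oocyte and eggshell lists, had 26.8 and 25.33 nt, against 31.2 and 29.4 nt in N2. Of 23 maternal RNA-binding protein genes 7 were shorter and 1 longer in this sense, with a median difference of -0.33 nt, and 21 had an interval within 10 nt.

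Ribosomal protein mRNAs had shorter tails in 17 of 67 cases and longer ones in 4, with a median difference of -1.32 nt. Of 28 cell cycle genes 4 had longer and 1 shorter tails, and 25 had an interval within 10 nt. The S-adenosylmethionine synthetase sams-1 had tails of 28.9 and 23.2 nt in mex-6(pk440), against 35.7 and 41.4 nt in N2 (-12.5 ± 3.22 nt, limma adjusted p = 1.00). The chaperone hsp-90 had 38.6 and 37.3 nt in mex-6(pk440), against 45.1 and 41.5 nt in N2.

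On the longer side the smallest p belonged to algn-3, an enzyme of N-glycosylation, with tails of 68.7 and 70 nt in mex-6(pk440), against 48.7 and 53.1 nt in N2 (18.5 ± 4.03 nt, limma adjusted p = 1.00). The groups stood apart, yet the adjustment over 5471 genes left it uncalled. The tail of cpsf-3 was 63.9 and 66.5 nt in mex-6(pk440), against 58.1 and 50.8 nt in N2, from 61 and 24 reads in the mutant and 109 and 42 reads in N2.

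The choice of poly(A) site was compared in genes with more than 1 peak. Of 1362 such genes with 3140 peaks, the edgeR test of differential use called 0 after Benjamini-Hochberg adjustment, and 60, or 4.41%, had an unadjusted p under 0.05. The smallest p was that of C49H3.3 (adjusted p = 0.90), where the upstream peak held 1.06% and 1.09% of the gene's reads in mex-6(pk440), against 54.1% and 1.31% in N2. N2 replicate 1, with 329 reads in that peak, stood alone, and the other 3 libraries were alike. The next were dnj-5, where a middle peak held 0.736% and 0.782% of reads in mex-6(pk440), against 2.54% and 1.83% in N2, and ahsa-1, where the minor peak held 4.30% and 6.83% in mex-6(pk440), against 15.4% and 8.51% in N2 (adjusted p = 0.90 each).

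The mutant was also set against mex-5 RNAi, the knockdown of the related gene, in a contrast that does not use the N2 levels. These groups differ in more than the gene, as mutant allele against feeding RNAi and perhaps in bacterial food. The series has no group fed HT115(DE3) bacteria without RNAi against a study gene. Effects of the gene, the method and the food therefore cannot be told apart in this contrast. Here 1959 genes passed, or 20.8% of those tested, of which 588 were higher and 1371 lower in mex-6(pk440). The count fell with a library left out, to 931 without mutant replicate 1, 1249 without mutant replicate 2, 1220 without mex-5 RNAi replicate 2 and 1351 without mex-5 RNAi replicate 1. The mex-5 transcript had 406 and 335 CPM in mex-6(pk440), against 38.6 and 34.3 CPM in mex-5 RNAi (log2 difference 3.34 ± 0.22, edgeR adjusted p = 1.4e-06). The mex-6 transcript was lower in the mutant than in mex-5 RNAi, at 7.03 and 3.07 CPM in mex-6(pk440), against 24.0 and 14.9 CPM in mex-5 RNAi (log2 difference -1.89 ± 0.34, edgeR adjusted p = 0.0015). Both groups were thus low in mex-6, and mex-5 RNAi alone of the pair was low in mex-5.

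The level of neg-1 was higher in the mutant, at 25.6 and 23.5 CPM in mex-6(pk440), against 12.1 and 8.94 CPM in mex-5 RNAi (log2 difference 1.22 ± 0.28, edgeR adjusted p = 0.0070). Leaving out mutant replicate 1 (adjusted p = 0.055) or mex-5 RNAi replicate 2 (adjusted p = 0.082) ended the call, and the lowest adjusted p over the alternatives was 0.0014. For gld-3 the log2 difference of 0.59 ± 0.20 just missed (edgeR adjusted p = 0.050).

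Several groups that were near N2 in the mutant differed from mex-5 RNAi. Over all genes, 6.25% were called higher and 14.6% lower in mex-6(pk440) than in mex-5 RNAi. Of 67 ribosomal protein genes 48 were called lower and 0 higher, and of 24 late embryo and larval tissue genes 19 were called lower and 1 higher. Of 26 anterior and ectoderm genes 13 were called higher and 4 lower, and of 11 muscle and posterior genes 7 were called lower and 0 higher. These counts also fell with a library left out. Without mutant replicate 1, the share of ribosomal protein genes called lower was below that of all genes in the same fit. With any other of the 4 libraries left out it stayed above the share of all genes. The number of lower calls of the ribosomal protein genes thus depended on mutant replicate 1. The difference in level did not rest on that library alone. The summed level of these genes was 43166 and 49130 CPM in mex-6(pk440), against 82753 and 83424 CPM in mex-5 RNAi. In the other lists named here each such fit called a larger share of members than of all genes. This held for lower calls of late embryo and larval and of muscle and posterior genes, and for higher calls of anterior and ectoderm genes. The myogenic regulator hlh-1 was lower in mex-6(pk440) by a log2 difference of -1.5 ± 0.33 (edgeR adjusted p = 0.0050). The epidermal factor elt-3 was also lower, by -1.69 ± 0.22 (edgeR adjusted p = 0.00019). It went against most of the anterior and ectoderm list, where it was the lowest member and the median log2 difference was 1.25.

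The antimicrobial peptide gene nlp-29 stood at 8.70 and 9.00 CPM in mex-6(pk440), against 308 and 253 CPM in mex-5 RNAi. The related nlp-33 stood at 39.9 CPM in both mutant libraries, against 793 and 715 CPM in mex-5 RNAi. The Notch-responsive gene hlh-27 went the other way, with 6.20 and 7.16 CPM in mex-6(pk440), against 0.326 and 0.248 CPM in mex-5 RNAi. The groups were far apart in all of these genes.

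The zinc finger list holds mex-5 and mex-6 themselves. Of the other 7 genes, 2 were called higher and 0 lower in the mutant, dct-13 with a log2 difference of 2.05 ± 0.31 (edgeR adjusted p = 0.00050). Of 28 cell cycle genes 9 were called higher and 0 lower, and 3 to 7 with a library left out, the fewest without mex-5 RNAi replicate 2. Of 37 sperm genes 25 were called higher and 0 lower, and 15 to 22 with a library left out, beside sperm sums of 187 and 148 CPM in mex-6(pk440), against 28.2 and 24.10 CPM in mex-5 RNAi. The sperm genes tested had passed the low-count filter, which a gene high in only some groups can pass. The sum over late embryo and larval genes was 1525 and 1653 CPM in mex-6(pk440), against 4764 and 4920 CPM in mex-5 RNAi, and its part in the called genes was not tested.

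The 8 genes with the highest fitted differences, acdh-2, msp-50, C55B7.3, F34D10.8, F57F4.2, K01D12.1, osm-5 and T24C2.3, all had 0 reads in both mex-5 RNAi libraries and between 1.23 and 4.53 CPM in mex-6(pk440), so no fold is given. The 8 with the lowest ones were Y81G3A.4, cld-9, spp-12, mlt-3, nspe-4, lat-2, F38B6.4 and Y47H10A.5, which had at most 2 reads in a mutant library and between 1.49 and 16.9 CPM in mex-5 RNAi. Both sets were thus genes near the detection limit in 1 of the groups.

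Tails differed between the mutant and mex-5 RNAi in 4 genes, or 0.0731% of those tested, 1 longer and 3 shorter in mex-6(pk440) (limma). The Patched-family gene ptc-1, needed in the germ line, had tails of 28.4 and 27.5 nt in mex-6(pk440), against 40.1 and 42.1 nt in mex-5 RNAi (-13.2 ± 1.64 nt, limma adjusted p = 0.015). The sodium pump subunit eat-6 had 46.4 and 44.7 nt in mex-6(pk440), against 63.1 and 65.6 nt in mex-5 RNAi (-18.8 ± 2.41 nt, limma adjusted p = 0.015). In both genes the libraries of a group agreed closely and the groups were far apart.

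The lipocalin-related gene lpr-6 had 44.7 and 39.4 nt in mex-6(pk440), against 68.2 and 74.9 nt in mex-5 RNAi, and T19H12.2 was the longer one, with 52.5 and 51.3 nt, against 42.3 nt in both mex-5 RNAi libraries (limma adjusted p = 0.043 each). Leaving out any of the 4 libraries left 0 calls, so these rest on all of them. Library medians differed as well, at 42.3 nt in both mutant libraries, against 42.8 and 46.2 nt in mex-5 RNAi, with a median difference over genes of -1.99 nt. With each library centred on its own median, 49 genes passed, of which 35 were longer and 14 shorter in mex-6(pk440). The tails of neg-1 did not pass in this contrast, with a difference of 3.25 ± 3.81 nt (95% interval -5.07 to 11.6 nt, limma adjusted p = 0.77).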

How the data were processed

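The authors deposited read counts for genes and for poly(A) peaks, and a score, the mean tail length in nt, for each; per the submitters' processing notes reads were aligned with Bowtie2 2.2.2 to the ce10 build, while how reads were counted and tails measured is not given here. The deposited counts hold 4613974 to 10229871 reads per library. Gene symbols were matched through RefSeq, and features that merge more than 1 coding gene were not named. Members and gene lists (20 lists, 502 of 619 names matched) were chosen with earlier results of these data known. Levels were tested with edgeR 4.0.16 (filterByExpr, TMM, quasi-likelihood F test), tails with limma 3.58.1 (variance trend, at least 10 reads in every library), and site use with edgeR's diffSpliceDGE on peaks averaging 10 reads or more in features of 1 coding gene; all fits used R 4.3.3 and 12 libraries with 1 term per group, adjusted over all features, at a threshold of 0.05. DESeq2 1.42.0, other scalings, filters and weights, a replicate block and each library left out were alternatives. Named were the study genes, called genes (with more than 15 in a direction, those of largest change), the 5 of smallest p in a direction with fewer than 5 calls, and members of smallest p in each list; from mex-5 RNAi the 8 of largest difference in each direction. Of the genes this rule gives, those printed were picked with their values known. The tests were also run on data simulated with known changes. How many of these changes they recovered is not given here, so no power is stated for changes of 2-fold or 10 nt. Replicates were not copies: their counts differed by chi-square values per degree of freedom of 11.0 in mex-6(pk440) and 18.5 in N2. Reads without molecular identifiers are not independent molecules, so intervals over libraries, not reads, are given. Sequences were not used here.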

Additional observations from a re-analysis of the deposited data

How the results depend on the processing

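Against N2, edgeR's 2 calls became 74 with DESeq2, 172 without the low-count filter, 34 (1 higher, 33 lower) with the 4 libraries alone and 1 to 9 with a library left out; mex-6 was called in each, and without N2 replicate 1 the count was 9. The replicate numbers share no stated culture or day, and the deviations of same-numbered mutant and N2 libraries correlated at -0.15 in level and -0.12 in tail over genes, those of mutant and mex-5 RNAi libraries at 0.32 and 0.16, and over all 15 pairs of groups the values ran from -0.15 to 0.46 in level and from -0.15 to 0.25 in tail. With a replicate block the calls against N2 were 44 in level, 0 in tail and 1 in site choice, and against mex-5 RNAi 2274 in level, where gld-3 passed (adjusted p = 0.027), and 3 in tail, where T19H12.2 did not (adjusted p = 0.061). Tail calls against N2 were 3 with libraries weighted by reads and 1 with log2 tails, against 0; site calls were 3 without N2 replicate 2, within 0 to 3 when a library was left out. Against mex-5 RNAi the 1959 level calls were 931 to 1351 with a library left out, without mutant replicate 1 (931), mutant replicate 2 (1249) or mex-5 RNAi replicate 2 (1220). The 4 tail calls there were 19 weighted by reads, 28 with log2 tails, 49 when centred, 1 with the 4 libraries alone and 0 with any library left out.

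Tail differences of uncalled study genes turned sign. Weighted by reads those against N2 were -0.19 nt for pos-1, -0.43 for gld-3, -2.01 for mex-5, -0.87 for mex-6 and -0.69 for neg-1. With a library left out they ranged from -3.33 to 5.90 for pos-1, -2.69 to 3.01 for gld-3, -3.48 to 3.93 for mex-5, -1.82 to 4.90 for mex-6 and -2.05 to 3.67 for neg-1. Against mex-5 RNAi the mex-6 tail difference was 2.16 nt when centred and -3.41 to 3.31 nt with a library left out, and that of neg-1 -0.72 to 7.21 nt. The log2 change of gld-2 ranged from -0.014 to 0.58 against N2 and from -0.39 to 0.087 against mex-5 RNAi. Counts of list members lower or shorter without overlap were also taken without each library and with other scaling or centring, alternatives added after seeing the data. They were 13 to 14 yolk, 24 to 35 sperm, 34 to 50 col and 11 to 13 oocyte and eggshell genes. The shares of all genes ran from 17.4% to 36.5% in level and from 15.1% to 53.4% in tail. Leaving out a library can only keep or raise such a count, so those settings could not lower it and do not test it. The causes were not tested. With 2 libraries a group, the 95% interval of the change in level reached past 2-fold for all but 43.6% of genes.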
